A study of Homo sapiens with 6 samples.

Results

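The Notch pathway genes described here were NOTCH1, NOTCH2 and NOTCH3 (receptors), JAG1, JAG2 and DLL1 (ligands), LFNG (a sugar-adding enzyme that modifies the receptors), RBPJ (the DNA-binding factor of the pathway) and HES1 and HEY1 (targets), 10 genes of the 58825 gene identifiers in the expression table. They were chosen by name as the core of the pathway, with earlier results of these data known, and 8 of the 10 had enough counts to be tested. The libraries came from SKOV3, an established human ovarian cancer cell line, transfected with an siRNA against EIF5A2 (si-EIF5A2) or a negative control (NC), and collected 48 h later. EIF5A2 is a translation factor of the eIF5A family. Each group had 3 mRNA libraries made from total RNA, all from this single cell line. The siRNA was transfected transiently, so any cells that took up none remain in the si-EIF5A2 libraries. No other siRNA against EIF5A2 was used in these libraries. Effects of the siRNA on other RNAs therefore cannot be told apart from those of losing EIF5A2.

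Notch receptors are cut in the secretory pathway, carried to the cell surface and bound there by Jagged or Delta ligands on a neighbouring cell. Binding exposes the receptor to an ADAM protease and then to the γ-secretase complex, which frees the intracellular domain. That domain enters the nucleus, joins RBPJ and Mastermind coactivators on DNA and raises transcription of repressors of the HES and HEY families. Fringe enzymes such as LFNG lengthen the O-fucose sugars of the receptor and change how well it answers each ligand, and Notch signalling has been studied in ovarian cancer for its part in growth and in the stem-like fraction of tumour cells.

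After EIF5A2 knockdown, 4 of the 8 tested genes fell (LFNG, HES1, NOTCH1 and JAG1) and 0 rose at an adjusted p under 0.05 with a fold change over 1.5 by edgeR's quasi-likelihood test. The other 4 (NOTCH2, JAG2, RBPJ and HEY1) did not pass. Among all 16208 genes tested, 13.6% were called lower and 11.1% higher by this rule, 24.6% in either direction. HES1 had been selected by the study itself from these libraries, so its direction is not independent evidence. The study then reported all of NOTCH1, HES1 and HEY1 as lower after knockdown in SKOV3, by western blot and qRT-PCR. Those assays are not analysed here, and HEY1 was not called in these libraries.

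The libraries held between 46900204 and 74142267 estimated counts, and scaled libraries correlated at 0.964 to 0.974 within a group and 0.929 to 0.938 between groups. The siRNA target EIF5A2 was counted 2030, 2108 and 1404 times in NC and 141, 211 and 205 times after knockdown, a fall to 12.7% of the NC mean (log2 fold change -2.98, SE 0.18, adjusted p = 1.60e-05). Low counts piled up near multiples of about 4, so a count of 4 stands for about 1 sequenced fragment. The 7 markers of SKOV3 and epithelial cells were detected in every library, with KRT7, KRT8 and PAX8 called lower. Their summed level was 1506 to 1673 CPM (counts per 1000000, with TMM-scaled library sizes) across the NC libraries, against 956 to 1168 CPM after knockdown. Most of this sum came from KRT8, KRT18 and KRT7, with NC means of 608, 418 and 382 CPM. PAX8 was at 106 CPM and ERBB2 at 45.9 CPM in NC, while KRT19 and EPCAM were low at 3.22 and 1.55 CPM. Summed markers of fibroblasts (controls 0.0638 to 1.15 CPM, knockdown 0.861 to 3.15 CPM) and leukocytes (0.213 to 0.395 CPM and 0.192 to 0.548 CPM, with PTPRC and CD3E at 0 in all 6 libraries) stayed low, and endothelial markers summed to 2.25 to 2.40 CPM in the controls, against 0.156 to 1.31 CPM after knockdown. Most of the endothelial sum in the controls came from PECAM1, with an NC mean of 1.87 CPM. The part of the fibroblast, leukocyte and endothelial markers in the results below was not tested. In bulk RNA, fewer cells expressing a gene cannot be told apart from less of its RNA in each cell.

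Promoter sequence gives context for the targets, because RBPJ binds DNA at a TGGGAA core and HES1 can bind the CACNAG N-box. RefSeq start sites on GRCh38.p14 were found for 8 of the 10 genes, and the 250 bases before each start were searched on both strands. TGGGAA occurs in 20.8% of 35116 such windows over all genes and at least 2 copies in 2.90%. The longer GTGGGAA, which contains the core, occurs in 5.43%, and CACNAG occurs in 32.0%.

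The windows of HES1 and of the second LFNG start held the core and lay almost wholly outside annotated exons, and they are printed 5′ to 3′ on the strand of the gene, with TGGGAA in capitals. The HES1 window, chr3:194135898-194136147 on the plus strand, ends 3 bases inside the first annotated HES1 exon. The LFNG window, chr7:2517613-2517862 on the plus strand, lies inside the gene between annotated exons, before the second of its 2 RefSeq starts.
HES1: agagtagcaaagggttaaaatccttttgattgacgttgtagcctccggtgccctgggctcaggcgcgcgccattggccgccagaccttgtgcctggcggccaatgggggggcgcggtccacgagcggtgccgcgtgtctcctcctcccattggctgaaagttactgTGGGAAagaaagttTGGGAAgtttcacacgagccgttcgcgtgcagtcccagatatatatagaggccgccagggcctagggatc
LFNG: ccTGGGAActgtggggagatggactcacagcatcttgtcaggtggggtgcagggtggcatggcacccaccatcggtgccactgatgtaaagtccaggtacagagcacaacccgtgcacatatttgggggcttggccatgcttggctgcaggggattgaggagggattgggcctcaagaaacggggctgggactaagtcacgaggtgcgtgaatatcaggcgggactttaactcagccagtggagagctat

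HES1 carried TGGGAA 84 to 79 and 70 to 65 bases before its start, both on the gene's strand, and the upstream copy was part of GTGGGAA. It also held 3 matches to CACNAG, against 6.32% of all windows with at least 2. LFNG start 2 held 1 TGGGAA, 248 to 243 bases before the start, and 1 CACNAG, while LFNG start 1 held neither. The second of 5 RBPJ starts held 2 TGGGAA copies on opposite strands, 72 to 67 and 115 to 110 bases before the start, both within GTGGGAA, which 0.174% of all windows hold at least 2 times. NOTCH1, NOTCH2, JAG1 and JAG2 held no match to either motif in these windows, and NOTCH3 held only 1 CACNAG. A match describes these letters only and is no evidence of binding.

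**Figure D1:**
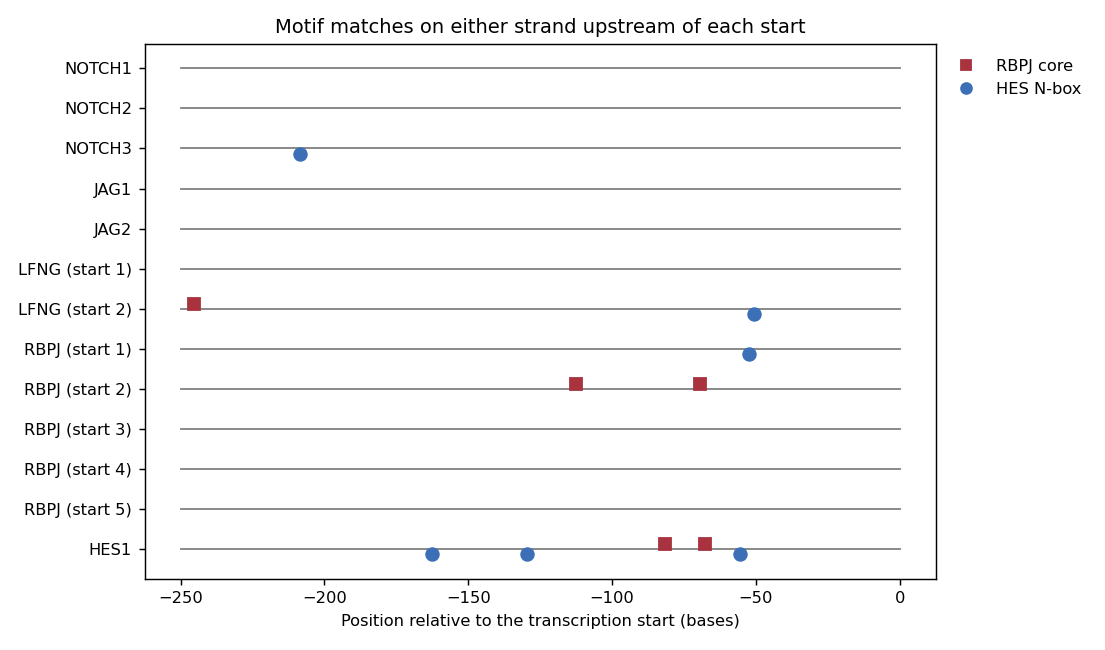
Matches to the RBPJ core TGGGAA (red squares) and the HES N-box CACNAG (blue circles), on either strand, in the 250 bases before each RefSeq start of 8 Notch pathway genes; the horizontal axis is the distance in bases from the start. HES1 holds 2 cores and 3 N-boxes, and NOTCH1, NOTCH2, JAG1 and JAG2 hold no match.

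Of the receptors, NOTCH1 fell to 47.9% of the control level, while NOTCH2 did not pass the test and NOTCH3 was near 0. NOTCH1 (ENSG00000148400, chr9:136494433-136545786, minus strand) encodes a receptor whose cleaved intracellular domain activates RBPJ. Its level was 64.5, 58.2 and 55.2 CPM in NC, against 28.5, 25.2 and 31.4 CPM after knockdown. All 3 knockdown libraries lay below all 3 controls, and the lowest control was well above the highest knockdown library. The mean went from 59.3 ± 4.74 to 28.4 ± 3.09 CPM (SD, n = 3 each). Its log2 fold change was -1.06 (SE 0.11, 95% interval -1.32 to -0.81, adjusted p = 2.20e-04).

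NOTCH2 (ENSG00000134250, chr1:119911553-120069626, minus strand), the receptor with the highest level here, had 238, 237 and 235 CPM in NC and 207, 186 and 233 CPM in si-EIF5A2. The controls agreed closely and each knockdown library was below them, the third only slightly. Its log2 fold change of -0.18 (95% interval -0.39 to 0.03, adjusted p = 0.163) was not called. The human-specific partial copies NOTCH2NLA, NOTCH2NLB, NOTCH2NLC and NOTCH2NLR, which resemble the start of NOTCH2, together had 18.9% to 26.3% of its counts, and reads shared among them could be divided unevenly, so the NOTCH2 values are uncertain to that extent. With their counts added to those of NOTCH2, a choice made after seeing the data, the log2 fold change was -0.17. NOTCH3 (ENSG00000074181, chr19:15159038-15200981, minus strand) had 4, 12 and 0 counts in NC and 0, 8 and 4 in si-EIF5A2, which is at most about 3 fragments a library, so a difference was not detectable at this depth.

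**Figure D2:**
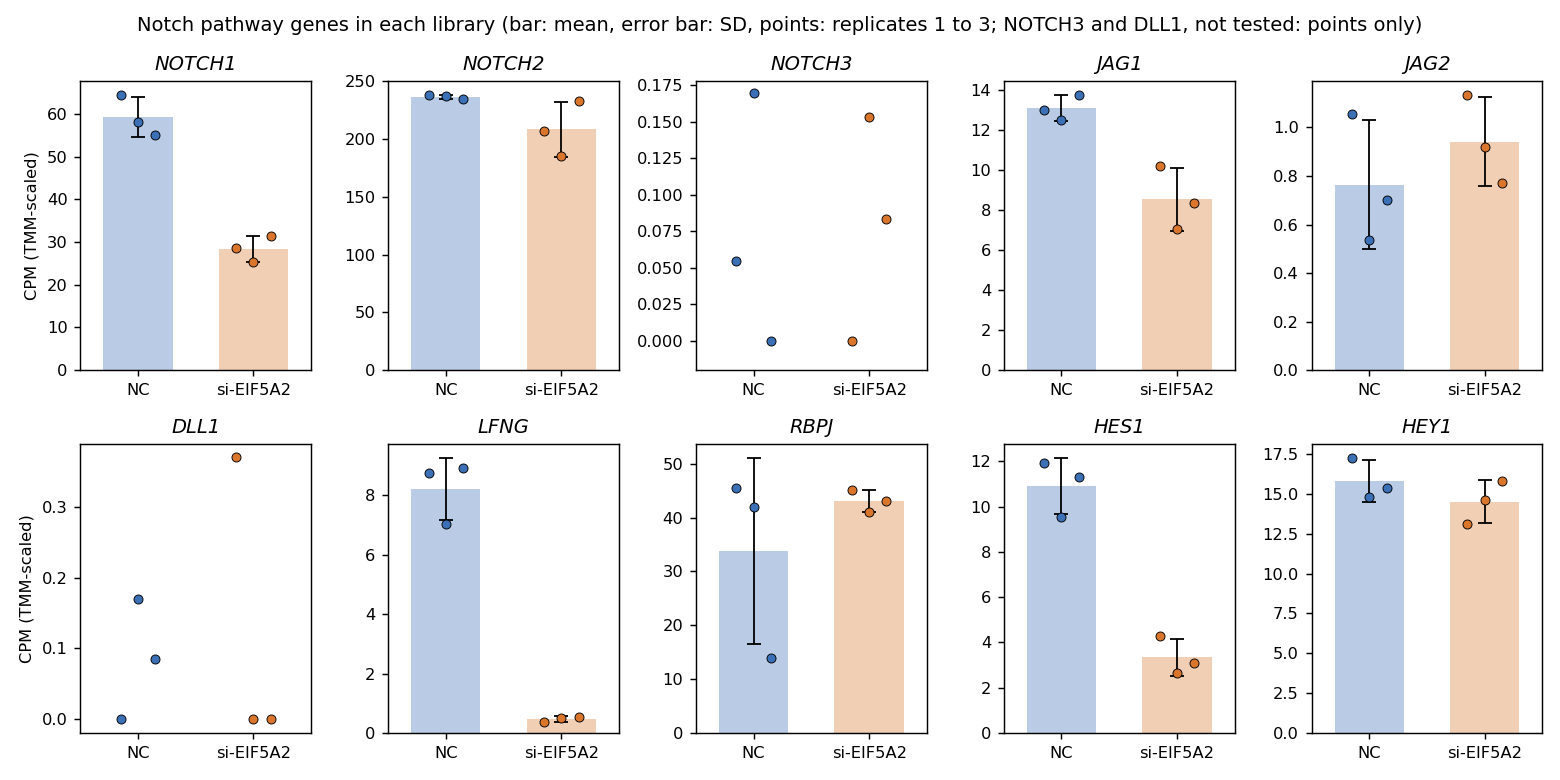
Level of each of the 10 genes in CPM (vertical axis, linear, different for each gene) in the NC and si-EIF5A2 libraries; points are the 3 libraries of each group, bars their mean and error bars the SD, with points only for NOTCH3 and DLL1, which were not tested. The groups are separate for NOTCH1, JAG1, LFNG and HES1 and, narrowly, for NOTCH2, and the third NC library stands low for RBPJ at 13.9 CPM.

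Per length of annotated exon (TPM, counts per exon base scaled to sum to 1000000 in a library), NOTCH2 was the most abundant of the 10 genes in NC at 38.9 ± 0.654 TPM (SD, n = 3). NOTCH1 followed at 15.8 ± 0.893 TPM. Of the summed level of NOTCH1, NOTCH2 and NOTCH3, NOTCH1 made up 30.5%, 28.4% and 27.6% in NC, against 18.2%, 18.0% and 17.9% after knockdown. NOTCH2 accounted for 71.1% ± 1.51 of this sum in NC and 81.9% ± 0.156 in si-EIF5A2 (SD, n = 3 each), and the share of NOTCH3 was at most 0.121% in any library. NOTCH4, described with the rest of the pathway, is not in this sum and was at 0.994 ± 0.348 TPM in NC and 0.0590 ± 0.0150 TPM in si-EIF5A2 (SD, n = 3 each). The log2 ratio of NOTCH1 to NOTCH2 counts, a quantity that does not depend on library size, was -1.88, -2.03 and -2.09 in NC and -2.86, -2.88 and -2.89 in si-EIF5A2. The groups did not overlap, and the difference of -0.88 had p = 0.10 in a 2-sided exact permutation test, the smallest value that 3 against 3 libraries allow, and 0.233 after Benjamini-Hochberg adjustment over 7 ratios. The ratios of NOTCH1 and NOTCH2 to NOTCH3 differed by -1.20 and -0.32 on the log2 scale (exact permutation p = 0.40 and 0.70), with overlapping groups, and rest on the few NOTCH3 counts.

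**Figure D3:**
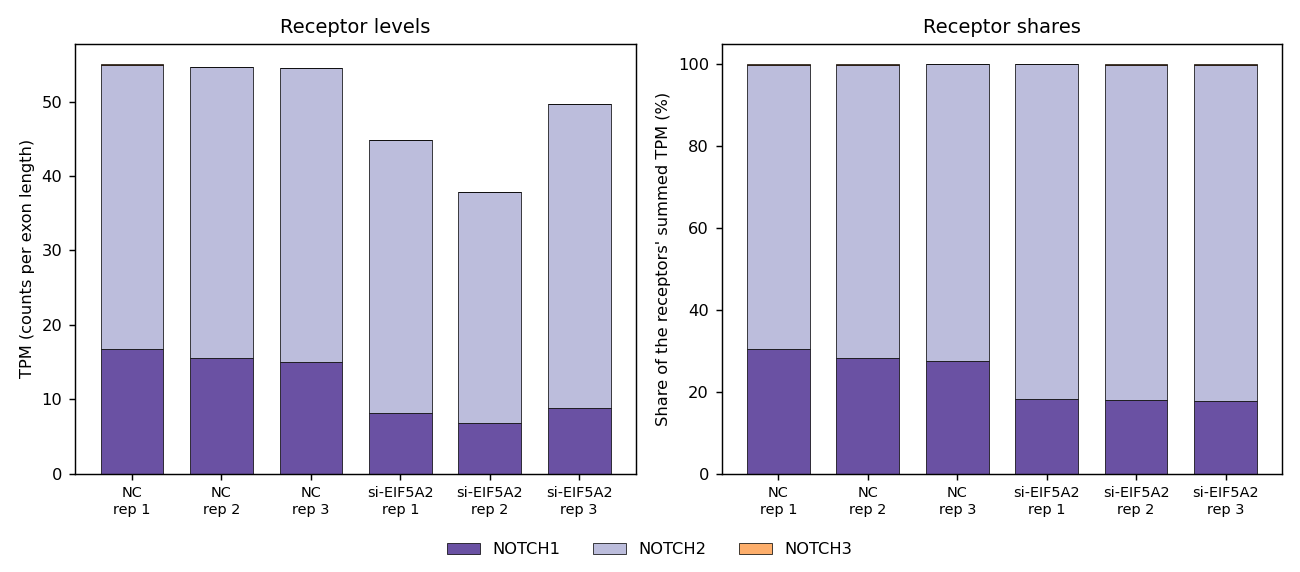
Stacked levels of NOTCH1, NOTCH2 and NOTCH3 in TPM (left, counts per exon length) and as a percentage of their sum (right) in each of the 6 libraries. NOTCH1 takes 27.6% to 30.5% of the sum in NC and 17.9% to 18.2% in si-EIF5A2, and NOTCH3 is too low to be seen.

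Among the ligands, JAG1 fell and JAG2 did not pass the test, and DLL1 was near 0 in both groups. JAG1 (ENSG00000101384, chr20:10637684-10673999, minus strand), a Jagged ligand that activates Notch receptors on neighbouring cells, had 13.0, 12.5 and 13.8 CPM in NC and 10.2, 7.07 and 8.38 CPM in si-EIF5A2. Every knockdown library was below every control, and the second was lowest. The mean changed from 13.1 ± 0.634 to 8.55 ± 1.58 CPM (SD, n = 3 each), with a log2 fold change of -0.62 (SE 0.16, 95% interval -0.98 to -0.25, adjusted p = 0.0169). The fold of 1.53 was just past the limit of 1.5, and the call was lost without NC replicate 3 (log2 fold change -0.59, adjusted p = 0.0526), si-EIF5A2 replicate 2 (-0.50, adjusted p = 0.0428) or si-EIF5A2 replicate 3 (-0.61, adjusted p = 0.0503). JAG1 shares 79 exon bases with an antisense gene, and whether the counting used strand is not given in the sources used here.

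JAG2 (ENSG00000184916, chr14:105140981-105168824, minus strand), the second Jagged ligand, was low at 1.06, 0.536 and 0.702 CPM in NC and 1.13, 0.920 and 0.771 CPM in si-EIF5A2. The groups overlapped, and the interval of its log2 fold change of 0.30 ran from -0.64 to 1.24 (adjusted p = 0.616), wide enough to hold a fall or a rise of the size seen for JAG1. It shares 469 exon bases with another annotated gene on the same strand, so its counts are uncertain. DLL1 (ENSG00000198719, chr6:170282206-170306565, minus strand), a Delta-type ligand, had 0, 12 and 4 counts in NC and 19, 0 and 0 in si-EIF5A2 and was not tested. In NC, JAG1 was at 3.90 ± 0.253 TPM, JAG2 at 0.329 ± 0.108 TPM and DLL1 at 0.0733 ± 0.0727 TPM (SD, n = 3), so JAG1 was the main ligand RNA of the 3.

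The log2 ratio of JAG1 to JAG2 counts was 4.12 ± 0.463 in NC and 3.16 ± 0.245 in si-EIF5A2 (SD, n = 3 each), without overlap. Its difference of -0.97 again had the smallest exact permutation p of 0.10 (adjusted 0.233). The ratios of JAG1 and JAG2 to DLL1 differed by -0.37 and 0.60 (exact permutation p = 1 for each) and changed sign when single libraries were left out, since DLL1 was at 0 in 3 libraries.

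LFNG had the largest fall of the 8 tested genes. LFNG (ENSG00000106003, chr7:2512529-2529177, plus strand), lunatic fringe, adds N-acetylglucosamine to O-fucose on the receptors' EGF repeats in the Golgi and thereby alters their answer to Delta and Jagged ligands. Its counts were 639, 498 and 419 in NC, and 19, 26 and 26 after knockdown. In CPM these were 8.76, 7.03 and 8.91 against 0.372, 0.498 and 0.542, so the controls stood far above every knockdown library. The mean fell from 8.23 ± 1.04 to 0.471 ± 0.0885 CPM (SD, n = 3 each), to 5.72% of the control level, with a log2 fold change of -4.12 (SE 0.23, 95% interval -4.65 to -3.59, adjusted p = 1.18e-05). Only 61 of the 16208 tested genes, LFNG included, fell as far. The knockdown libraries held about 5 to 7 LFNG fragments each. Summed fragments, 18 against 403, gave 5.63% of the control level with an exact 95% interval of 3.31% to 9.02%, which covers counting error only. LFNG was also called under every alternative setting run, with log2 fold changes from -4.24 to -3.99.

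RBPJ (ENSG00000168214, chr4:26163455-26435131, plus strand), which brings the cleaved receptor to DNA and recruits corepressors in its absence, was at 45.6, 42.0 and 13.9 CPM in NC and 45.0, 41.0 and 43.1 CPM in si-EIF5A2. The third NC library held 31.8% of the mean of the other 2 controls (43.8 CPM), while the remaining 5 libraries lay within 41.0 to 45.6 CPM. The log2 fold change of 0.35 (95% interval -0.78 to 1.47, adjusted p = 0.606) was not called. Without NC replicate 3 it was -0.03, with a narrow interval of -0.26 to 0.20 (adjusted p = 0.842). In that library 189 of the tested genes were more than 3-fold below the lowest of the other 5 libraries, a number within the 85 to 219 found for each library in turn.

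Of the targets, HES1 fell to 30.5% of its control level, and HEY1 did not pass the test. HES1 (ENSG00000114315, chr3:194136145-194138732, plus strand) encodes a basic helix-loop-helix repressor that is a standard readout of Notch activity and also responds to other pathways. It was at 11.9, 9.54 and 11.3 CPM in NC and 4.26, 2.66 and 3.09 CPM in si-EIF5A2. All 3 knockdown libraries were below all controls, with the first the highest of them. The mean changed from 10.9 ± 1.24 to 3.34 ± 0.830 CPM (SD, n = 3 each), with a log2 fold change of -1.71 (SE 0.21, 95% interval -2.19 to -1.23, adjusted p = 4.65e-04). Per length, HES1 went from 14.6 ± 1.59 to 4.72 ± 1.30 TPM.

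HEY1 (ENSG00000164683, chr8:79764010-79767863, minus strand), a related repressor of the hairy and enhancer-of-split family with YRPW motif, had 17.3, 14.8 and 15.3 CPM in NC and 13.1, 14.6 and 15.8 CPM in si-EIF5A2. The groups overlapped. Its log2 fold change was -0.12 (SE 0.12, 95% interval -0.41 to 0.16, adjusted p = 0.491), an interval that excludes a fall as large as that of HES1. The log2 ratio of HES1 to HEY1 counts was -0.53 ± 0.0949 in NC and -2.14 ± 0.455 in si-EIF5A2 (SD, n = 3 each), so the pair did not overlap between groups. The difference of -1.60 had the smallest exact permutation p of 0.10 (adjusted 0.233).

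**Figure D4:**
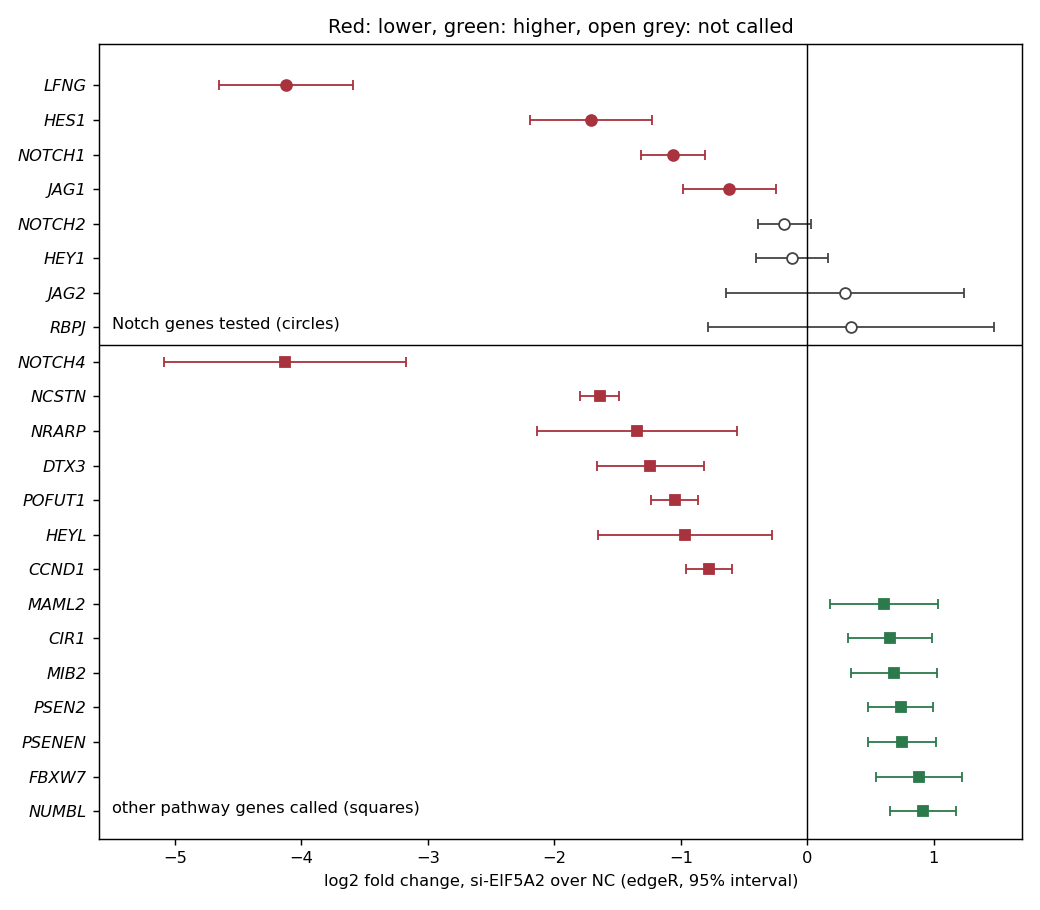
Log2 fold change of si-EIF5A2 over NC with its 95% interval (edgeR) for the 8 tested Notch genes (circles, upper part) and for 14 other pathway genes that were called (squares, lower part); red marks lower, green higher and open grey not called. LFNG at -4.12 and NOTCH4 at -4.13 lie farthest from 0, and the γ-secretase subunits fall on both sides of 0.

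Within the NC libraries the order of levels per length was NOTCH2, NOTCH1, HES1, HEY1, RBPJ, LFNG, JAG1, JAG2, DLL1 and NOTCH3, from 38.9 to 0.0219 TPM. Neighbours from NOTCH1 down to LFNG (from 15.8 to 6.66 TPM) had overlapping ranges over the 3 libraries, as did DLL1 and NOTCH3, and the other neighbours did not. In si-EIF5A2 the mean of RBPJ (13.5 TPM) and HEY1 (13.0 TPM) stood above those of NOTCH1 (7.96 TPM) and HES1 (4.72 TPM), and LFNG (0.399 TPM) was at about the level of JAG2 (0.428 TPM).

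The 10 genes differed in how far the call depended on its rule. With no limit on the fold change the same count of 4 members passed, where 36.9% of all tested genes did. The threshold in the study's methods (unadjusted p under 0.05 with a fold change over 2 or under 0.5) passed 3 members, NOTCH1, LFNG and HES1, and 14.6% of all tested genes. CPM ranges of the groups did not overlap for 5 of the 8 tested members (NOTCH1, NOTCH2, JAG1, LFNG and HES1), against 51.2% of all tested genes. The median log2 fold change of the 8 was -0.40, and that of all tested genes was -0.01. Leaving out single libraries moved NOTCH1 between -1.15 and -0.99 and HES1 between -1.93 and -1.57, and both stayed called.

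**Figure D5:**
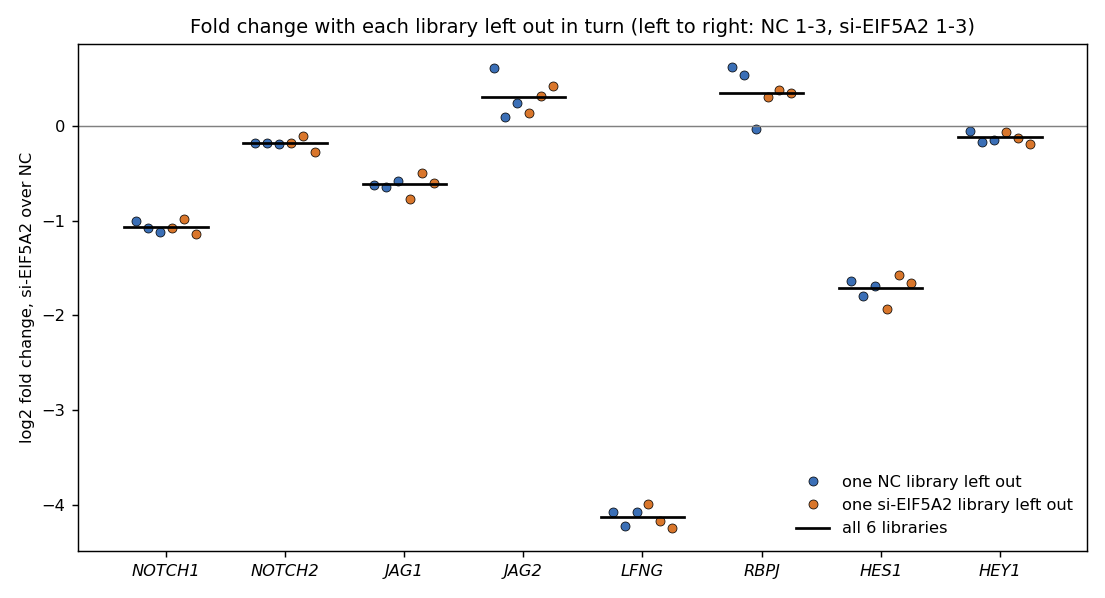
Log2 fold change of the 8 tested Notch genes with all 6 libraries (black line) and after dropping 1 library at a time (blue: an NC library left out, orange: a si-EIF5A2 library left out). LFNG, HES1, NOTCH1 and JAG1 stay below 0 throughout, and RBPJ drops from 0.35 to -0.03 without NC replicate 3.

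Of 64 other genes of the pathway, 56 were tested, 7 were lower and 8 higher, together 26.8% of those tested against 24.6% of all genes, a share near the background. Their median log2 fold change was -0.01. DLL3, DLL4, DLK1, MFNG, NEURL1, TLE2, DTX1 and HES5 had too few counts to be tested. Among the other receptors and ligands, NOTCH4, a receptor best known from endothelium, had 322, 148 and 189 counts in NC and 7, 12 and 11 in si-EIF5A2 (log2 fold change -4.13, SE 0.41, adjusted p = 1.84e-04). Its knockdown libraries held only about 2 to 3 fragments each, and summed fragments, 8 against 171, gave 5.90% of the control level (exact 95% interval 2.51% to 11.9%, counting error only). The endothelial marker PECAM1 went from 1.87 ± 0.226 to 0.318 ± 0.335 CPM (SD, n = 3 each; adjusted p = 0.0941, not called). PECAM1 did pass, as lower, the threshold in the study's methods. Mean VWF and TEK, also tested, went from 0.235 to 0.162 CPM and from 0.196 to 0.181 CPM, with overlapping groups. KDR and CLDN5 had too few counts to be tested. Their means were 0.0376 and 0 CPM in NC, against 0.0766 and 0.0522 CPM in si-EIF5A2. Of the 5 endothelial markers, 3 had enough counts to be tested and 0 were called, and their part in the NOTCH4 result was not tested. NOTCH4 shares 98 exon bases with a gene on its strand.

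Calls among the 9 tested receptor-cleaving genes went both ways, and the 1 call among the sugar-adding and folding enzymes listed here was lower. POFUT1, which puts the O-fucose on the receptor that LFNG then extends, fell from 155 ± 9.12 to 74.9 ± 4.15 CPM (SD, n = 3 each; log2 fold change -1.05, adjusted p = 4.69e-05), the only call among 4 tested sugar-adding and folding enzymes. NCSTN, nicastrin, the substrate-binding subunit of γ-secretase, fell from 160 ± 3.13 to 51.4 ± 0.0492 CPM (-1.64, adjusted p = 4.92e-06). PSEN2 and PSENEN, which encode other subunits of the complex, rose, with log2 fold changes of 0.74 and 0.75 (adjusted p = 0.00139 and 0.00158). PSENEN overlaps other genes on both strands. MIB2, a ubiquitin ligase that acts on the ligands, rose by 0.68 on the log2 scale (adjusted p = 0.00787), 1 of 3 tested ligases.

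In the nucleus, MAML2, a Mastermind coactivator, rose by 0.61 on the log2 scale (adjusted p = 0.0346), 1 of 8 coactivators, and CIR1, a corepressor that binds RBPJ, rose by 0.65 (adjusted p = 0.00833), 1 of 11 tested corepressors. Among 9 tested genes of receptor turnover and inhibition, NUMBL, related to the inhibitor NUMB, and FBXW7, a ubiquitin ligase subunit that marks the intracellular domain for destruction, rose by 0.91 and 0.88 (adjusted p = 4.91e-04 and 0.00228). DTX3, a Deltex-family ubiquitin ligase, and NRARP, a Notch target that feeds back on the complex, fell, with log2 fold changes of -1.24 and -1.35 (adjusted p = 0.00123 and 0.0165). Of 6 other HES and HEY genes tested, HEYL fell by 0.97 on the log2 scale (adjusted p = 0.0352). CCND1, cyclin D1, 1 of 4 genes listed as other reported targets, fell from 1425 ± 84.5 to 831 ± 50.4 CPM (-0.78, adjusted p = 1.77e-04). The calls of MIB2 (0.54), MAML2 (0.48) and CIR1 (0.56) were lost without NC replicate 3, and those of NRARP, HEYL and MAML2 were lost without each of several libraries.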

How the data were processed

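The members and gene lists were chosen with earlier results of these data known. Paired-end mRNA libraries of 3 NC and 3 si-EIF5A2 samples were measured. The deposited table holds whole-number estimated counts per Ensembl gene, with neither depth nor length scaling; for expression estimates the authors named StringTie and ballgown. The human aligner, build and annotation are not given in the sources used here. The submitters' processing notes name Bowtie 0.12.2 and the mouse builds mm8 and mm9, at odds with human identifiers. Low counts piled up at multiples of 3.86, so totals overstate fragments and 3 fragments are 0.159 to 0.246 CPM. Symbols matched 58472 of 58825 identifiers. GENCODE 29 on GRCh38, matched by identifier for 58552, gave coordinates and exon lengths.

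Counts were fitted in edgeR 4.0.16 (R 4.3.3; TMM, filterByExpr, robust quasi-likelihood test, condition only, no replicate block), leaving 16208 genes, with Benjamini-Hochberg adjustment over all of them. A call needed adjusted p under 0.05 and fold change over 1.5. TPM used the union of exons. Ratios used log2 counts plus 1 and 2-sided exact permutation tests (scipy 1.17.1). The edgeR and DESeq2 fits were tested on simulated data. Named genes were all members, EIF5A2, each other pathway gene called and, by name only, each not tested; 1 called gene, included in the counts, is not reported here. Alternatives were DESeq2 1.42.0, other normalizations, filters and thresholds, the block, counts divided by their step and leaving out each library. For the ratios, adding 10 counts in place of 1 was also run. No label says that replicates were separate cultures, so p-values measure only the spread between these libraries, which may be technical. The columns were matched to samples by their names.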

Additional observations from a re-analysis of the deposited data

How the results depend on the processing

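Of 336 fold changes recomputed under alternatives, 315 kept their direction and side of the threshold, 20 lost a call and 1 changed sign. NOTCH1, LFNG and HES1 were called under every alternative run. The number of members called was 3 to 4 when single libraries were left out, with JAG1 between -0.77 and -0.50, and NOTCH2, JAG2, RBPJ and HEY1 were never called. RBPJ ranged from -0.03 to 0.62, and its sign changed without NC replicate 3 (-0.0326). The number of other pathway genes called was 13 to 16 without single libraries, 23 with no fold limit and 6 with unadjusted p and a 2-fold limit, and 9 of the 15 called were kept under every other test, normalization, filter, block and left-out library. NOTCH4 was removed by the filter of at least 10 counts in every library and was called under the others. Without single libraries the ratio differences ran from -1.16 to 0.923 (JAG1/DLL1, with 0.741 and 0.923 without NC replicate 1 and si-EIF5A2 replicate 1), from -0.384 to 1.97 (JAG2/DLL1, with -0.384 and -0.141 without NC replicate 2 and si-EIF5A2 replicate 2) and from -1.24 to 0.474 (NOTCH2/NOTCH3, with 0.474 and 0.406 without NC replicate 3 and si-EIF5A2 replicate 2). These rest on a few counts and also depend on the count added before the log. With 10 added in place of 1, the difference was -1.27 for NOTCH1/NOTCH3 (adjusted exact permutation p = 0.175) and -0.895 for JAG1/DLL1 (0.28). It was -0.399 for NOTCH2/NOTCH3 (0.467) and 0.0442 for JAG2/DLL1 (0.9). With the length of the longest transcript, NOTCH1 and NOTCH2 made up 23.4% and 76.5% of the NOTCH1 to NOTCH3 sum in NC.

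Same-numbered libraries did not deviate together (correlations -0.0244, 0.00522 and -0.00269), so the numbers were not taken as pairs. With the replicate number as a block, the members called were 4 and the other pathway genes called 14, and the only gene whose call changed was MAML2 (log2 fold change 0.60, adjusted p = 0.0550). The depth limits NOTCH3 and DLL1, with at most 19 counts in a library, and leaves the JAG2 interval wide.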

Other observations

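MYC, listed among the reported Notch targets and named here after its values were seen, had 1130, 902 and 707 counts in NC and 8933, 724 and 674 in si-EIF5A2, so that the first si-EIF5A2 library alone was high, and it was not called (log2 fold change 2.23, adjusted p = 0.214). Of the partial NOTCH2 copies, also chosen after seeing values, NOTCH2NLB had 595, 666 and 29 counts in NC and 428, 405 and 332 in si-EIF5A2. NC replicate 3, low there, is the same library that was low for RBPJ. NOTCH2NLC had 1800, 1057 and 729 counts in NC and 191, 702 and 373 in si-EIF5A2.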
